A study of Mus musculus with 6 samples.

Results

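The Gimap genes encode the GTPases of immunity-associated proteins, a family found mainly in lymphocytes, and they lie together in 1 cluster on mouse chromosome 6. All rows of the deposited table whose gene symbol begins with Gimap were taken. These were 7 of the 4162 rows: Gimap1os, Gimap3, Gimap4, Gimap6, Gimap7, Gimap8 and Gimap9. All 7 passed the filter on low counts. Gimap1 and Gimap5 were not analysed here.

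The libraries are from CD4+ T cells of the mouse spleen, isolated as naive cells with magnetic beads and stimulated for 48 h with plate-coated anti-CD3 plus soluble anti-CD28. WT mice on a B6 background gave 3 libraries. UTX TCD mice on the same background, which lack the histone H3K27 demethylase UTX in T cells, gave the other 3. Each library is 1 mouse, and values are listed in the order of replicates 1, 2 and 3. Not given in the sources used here are the promoter that drives the deletion, the deleted exons, and the sex and age of the mice.

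GIMAP proteins share a GTPase domain of the AIG1 type, and several are anchored to internal membranes of the cell. Loss of single members in mice or rats is known to shorten the life of lymphocytes, Gimap5 in the lymphopenic BB rat being the classical case. Members have been tied to the BCL2 family, which controls mitochondrial apoptosis, and to the ATG8 proteins, which coat autophagosomes.

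The 9 annotated Gimap genes span 123.6 kb, chr6:48647234-48770851 (GENCODE M21, GRCm38, the assembly that mm10 names). Going along the chromosome they are Gimap8, Gimap9, Gimap4, Gimap6, Gimap7, Gimap1os, Gimap1, Gimap5 and Gimap3, with Gimap6, Gimap1os and Gimap3 on the minus strand. The 6 coding members with rows have annotated start sites in RefSeq (GRCm38.p6), Gimap8 with a pair of them. The 250 bases before the start are shown for 4 members: Gimap7, which differed most between the genotypes, Gimap4, which differed least, and Gimap6 and Gimap3, whose profiles lay nearest the family mean. Capitals mark matches to any of the motifs named in the next paragraph, on either strand.
Gimap7 (chr6:48718371-48718620, plus strand): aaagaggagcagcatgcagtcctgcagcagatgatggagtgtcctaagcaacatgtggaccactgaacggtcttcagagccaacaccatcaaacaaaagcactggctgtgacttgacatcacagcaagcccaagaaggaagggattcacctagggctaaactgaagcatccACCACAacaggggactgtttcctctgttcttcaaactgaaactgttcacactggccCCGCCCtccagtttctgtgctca
Gimap4 (chr6:48684328-48684577, plus strand): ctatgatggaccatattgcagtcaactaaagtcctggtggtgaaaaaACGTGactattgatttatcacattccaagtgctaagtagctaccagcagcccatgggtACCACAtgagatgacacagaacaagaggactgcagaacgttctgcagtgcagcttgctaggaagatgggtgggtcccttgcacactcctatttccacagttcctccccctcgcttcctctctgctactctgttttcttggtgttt
Gimap6 (chr6:48708245-48708494, minus strand): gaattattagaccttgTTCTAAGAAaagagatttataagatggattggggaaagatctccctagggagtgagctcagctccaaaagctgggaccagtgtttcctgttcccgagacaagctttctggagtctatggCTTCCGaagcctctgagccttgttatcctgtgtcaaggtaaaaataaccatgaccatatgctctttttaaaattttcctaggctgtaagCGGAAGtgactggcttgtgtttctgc
Gimap3 (chr6:48770852-48771101, minus strand): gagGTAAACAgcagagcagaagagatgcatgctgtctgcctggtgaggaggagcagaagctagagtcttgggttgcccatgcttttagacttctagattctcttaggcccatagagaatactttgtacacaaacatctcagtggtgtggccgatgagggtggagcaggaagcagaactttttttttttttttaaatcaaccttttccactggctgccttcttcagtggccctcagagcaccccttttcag

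These windows were searched on both strands for 9 short motifs, and no match overlapped another. The motifs were the HIF core ACGTG, the ETS core CGGAAG, the RUNX motif TGTGGT, the FOXO motif TGTTTAC, the TCF/LEF motif CTTTGAT, the KLF and SP motif CCGCCC, the AP-1 motif TGANTCA, the STAT motif TTCNNNGAA and the paired IRF motif. No motif was found before all 6 genes. CCGCCC occurred before Gimap7, 23 bases upstream of its start, and before Gimap9, and is present in 32.7% of 32851 mouse windows of the same length. TGTGGT occurred before Gimap7 and Gimap4, against 14.05% of all windows. CGGAAG was found before Gimap6, at 2 places, and before a start of Gimap8, against 13.6%. TTCNNNGAA was found before the same genes, against 7.02%. The HIF core was found before Gimap4, 203 bases upstream, against 16.6%, and TGTTTAC before Gimap3, against 3.17%. The letters of the TCF/LEF, AP-1 and IRF motifs were not in these 7 windows. A match is a description of the letters and not a bound site.

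Column totals ran from 8363326 to 10288306 counts. The table is not a full transcriptome: of 4118 genes tested, only 20 had a log2 fold change within 0.1 of 0, so rows without a genotype difference are largely missing. Listed genes are thus mostly genes that differed in some direction, the Gimap rows among them, and the adjusted p-values cover only the listed genes. Levels are in CPM, counts put on a common library size by TMM scaling over the listed genes. A positive log2 fold change means a higher level in UTX TCD cells, and its error is the standard error of edgeR's quasi-likelihood fit. Genes were called at a Benjamini-Hochberg adjusted p under 0.05, and by this rule 1692 were higher and 1111 lower in UTX TCD cells. Leaving out WT replicate 1, 2 or 3 changed the higher calls to 812, 730 or 1195 and the lower calls to 402, 351 or 544. Calls were 60.4% higher with TMM scaling, 70.6% with upper-quartile scaling and 45.8% with scaling centred on the gap in the fold changes. Kdm6a, the gene of UTX, had 286, 281 and 281 CPM in WT and 188, 207 and 179 CPM in UTX TCD libraries. Its log2 fold change was -0.56 ± 0.09 (0.68-fold, edgeR adjusted p = 0.0029), so the transcript was lower but not absent. UTX TCD replicate 2 was unlike the other mutant libraries in some genes. Irf7, an interferon-induced transcription factor, was at 179 CPM there against 18.4 and 20.5 CPM in UTX TCD replicates 1 and 3.

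The Gimap genes were higher in UTX TCD cells in every row. Each of the 7 was called higher, where 41.1% of all genes tested were called higher, 27.0% lower and 68.1% either way. In each of the 7 the lowest UTX TCD library lay above the highest WT library, as in 41.8% of all genes, with 44.0% separated in the lower direction and 85.8% in either. Their median log2 fold change was 0.94, against -0.15 over all genes tested, and single members ran from 0.41 to 2.08. The share of all genes with a smaller log2 fold change ran from 64.0% for Gimap4 to 97.3% for Gimap7. Summed over the 7 rows, the level was 2502, 2476 and 2799.9 CPM in WT, and 3752, 5365 and 4302 CPM in UTX TCD libraries. The family took 0.245% to 0.28% of the column total in WT libraries and 0.372% to 0.551% in UTX TCD libraries. In bulk RNA, more cells that carry these transcripts and more transcript in each cell cannot be told apart.

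**Figure D1:**
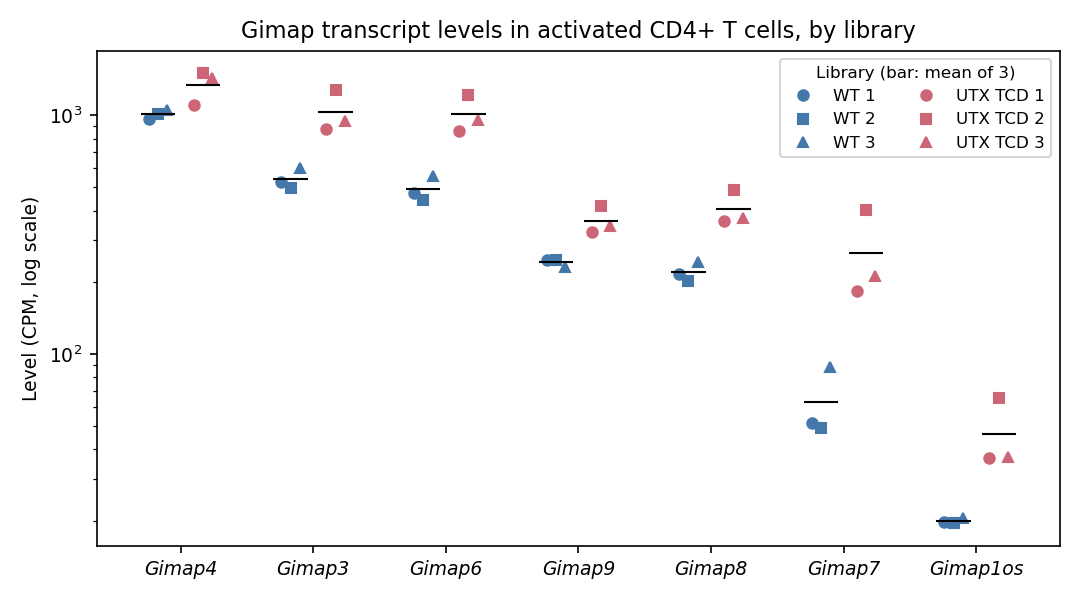
Level of each Gimap gene in CPM on a log axis, with WT libraries in blue and UTX TCD libraries in red, 1 point per library (1 mouse each) and a bar at the mean of 3. In each gene the 3 red points lie above the 3 blue ones, most widely in Gimap7 and most narrowly in Gimap4.

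Gimap7 (chr6:48718621-48724636, plus strand), which hydrolyses GTP as a dimer and can stimulate hydrolysis by another family member, had the largest difference. WT replicates 1, 2 and 3 had 51.7, 49.1 and 88.1 CPM, and UTX TCD replicates 1, 2 and 3 had 184, 401 and 214 CPM. WT replicate 3 was the highest of its group and UTX TCD replicate 2 the highest of all, and the lowest UTX TCD library was still 2.09 times the highest WT library. The means were 63.0 ± 21.8 and 266 ± 118 CPM (SD, n = 3 each), and Gimap7 rose 4.24-fold (log2 2.08 ± 0.34, edgeR adjusted p = 0.0038). Among all genes tested, 97.3% had a smaller log2 fold change. Without UTX TCD replicate 2 the log2 fold change was 1.66 (edgeR adjusted p = 0.0028).

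Gimap6 (chr6:48701582-48708225, minus strand), which binds an ATG8 protein and is recruited to autophagosomes, had 474, 442 and 561 CPM in the WT libraries and 858, 1216 and 959 CPM in the UTX TCD libraries. The groups did not overlap, and UTX TCD replicate 2 was again the highest. It rose from 492 ± 61.3 to 1011 ± 184 CPM, 2.05-fold (log2 1.04 ± 0.15, edgeR adjusted p = 0.0026), and its log2 fold change was 0.88 without UTX TCD replicate 2.

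Gimap3 (chr6:48764464-48770851, minus strand), a membrane-anchored close relative of Gimap5 that has been linked to BCL2 proteins, followed the same course. Its level was 526, 495 and 599.9 CPM in WT and 877, 1274 and 948 CPM in UTX TCD libraries. The mean rose from 540.2 ± 54.0 to 1033 ± 212 CPM, 1.91-fold (log2 0.94 ± 0.15, edgeR adjusted p = 0.0037), and the log2 fold change was 0.75 without UTX TCD replicate 2. Of the 50-base stretches in its annotated transcripts, 7.52% also occur in Gimap5, so a part of its reads could have been assigned to either gene or left out.

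Gimap8 (chr6:48647234-48660875, plus strand), a long member with several GTPase domains, had 216, 203 and 244 CPM in WT and 362, 489 and 371 CPM in UTX TCD libraries. It rose from 221 ± 21.2 to 407 ± 70.8 CPM (log2 0.88 ± 0.14, edgeR adjusted p = 0.0032). None of its 50-base stretches occurs in another annotated gene, and the same holds for Gimap9 and Gimap4. Gimap9 (chr6:48676129-48679114, plus strand) had 249, 249 and 233 CPM in WT and 325, 417 and 344 CPM in UTX TCD libraries. It rose 1.49-fold, from 244 ± 9.22 to 362 ± 48.6 CPM (log2 0.57 ± 0.11, edgeR adjusted p = 0.0059).

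Gimap4 (chr6:48684549-48692060, plus strand), which promotes the death of T cells and has been linked to BAX, was the most abundant row and differed least. WT libraries had 964, 1019 and 1053 CPM, and UTX TCD replicates 1, 2 and 3 had 1108, 1503 and 1430.3 CPM. UTX TCD replicate 1 lay just above the WT libraries, at 1.05 times the highest of them. Gimap4 rose 1.33-fold, from 1012 ± 44.8 to 1347 ± 210.2 CPM (log2 0.41 ± 0.12, edgeR adjusted p = 0.023). The call was lost when WT replicate 1, 2 or 3 was left out, at log2 fold changes of 0.38, 0.41 and 0.44 (edgeR adjusted p = 0.084, 0.075 and 0.055). Leaving out UTX TCD replicate 3 also ended it (0.37, edgeR adjusted p = 0.058), as did adjustment over all annotated protein-coding genes (adjusted p = 0.12).

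Gimap1os (chr6:48738346-48741444, minus strand) is annotated as a processed transcript on the strand opposite Gimap1. It was the least abundant row, with 19.8, 19.6 and 20.7 CPM in WT and 36.8, 65.6 and 37.1 CPM in UTX TCD libraries. It rose 2.32-fold, from 20.0 ± 0.549 to 46.5 ± 16.6 CPM (log2 1.21 ± 0.24, edgeR adjusted p = 0.0071), and the log2 fold change was 0.87 without UTX TCD replicate 2. Gimap1 exons on the other strand cover 35.7% of its exon bases. Not given in the sources used here is the strand setting of the counting, and if it ignored strand, reads of Gimap1 cannot be told apart from reads of Gimap1os in that stretch.

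**Figure D2:**
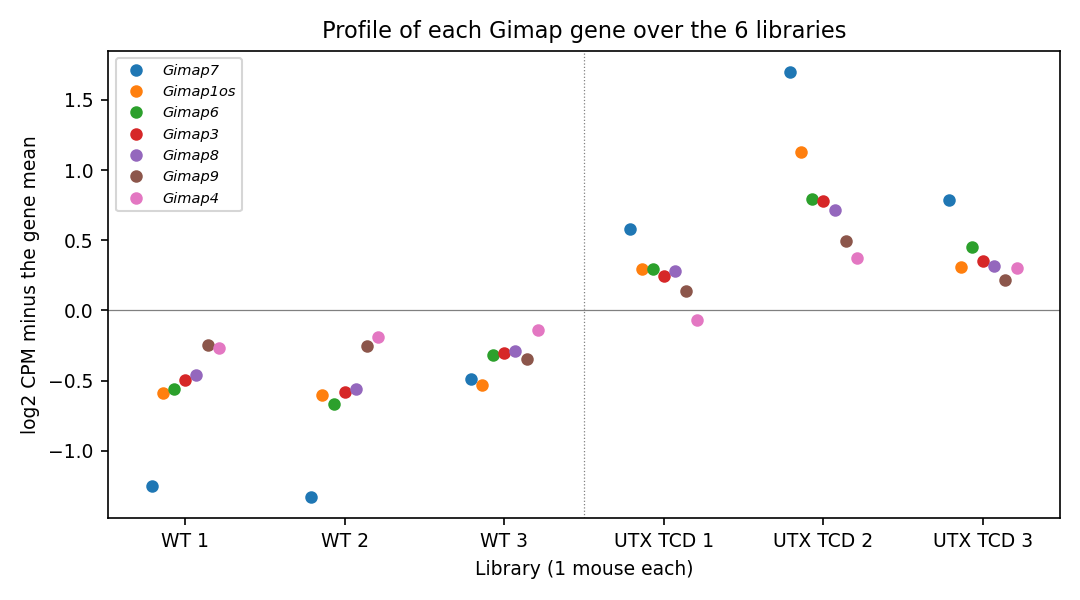
log2 CPM of each Gimap gene minus its mean over the 6 libraries, 1 point per gene and library, with genes in order of log2 fold change. UTX TCD replicate 2 has the highest point of every gene, and Gimap7 has the widest spread, from -1.33 in WT replicate 2 to 1.70 in UTX TCD replicate 2.

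The libraries of 1 genotype were ordered in a like way across the family. UTX TCD replicate 2 was the highest and UTX TCD replicate 1 the lowest of its group in 7 of 7 rows. Over all genes tested UTX TCD replicate 2 was the highest of the 6 libraries in 32.8%. That share includes the 44.0% of genes separated in the lower direction, where no UTX TCD library can be the highest. It is thus a low comparator for genes called higher, and the order is not shown to be particular to the family. WT replicate 3 was the highest WT library in 6 of 7 rows, Gimap9 being the exception. For this order and for UTX TCD replicate 1 as the lowest, no share over all genes was computed. Members share these libraries, so the 7 rows are not 7 separate observations of the genotype. With UTX TCD replicate 2 left out, all 7 were still called higher, among 1605 genes called higher over all genes in that fit.

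**Figure D3:**
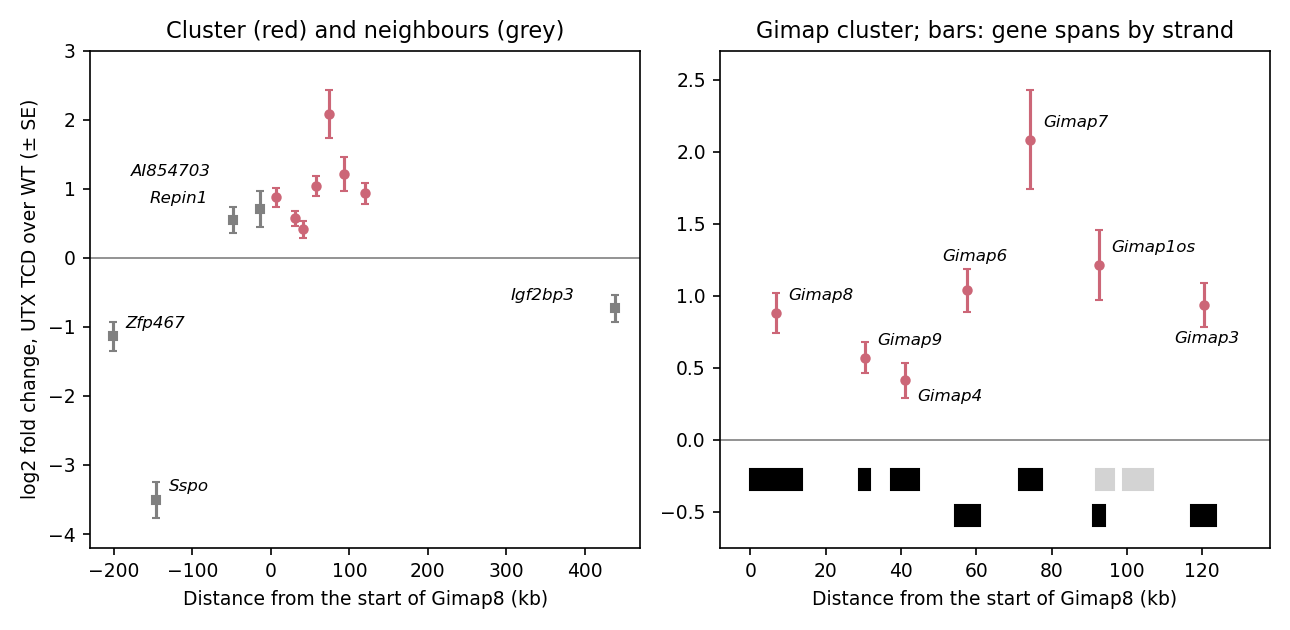
log2 fold change ± standard error against distance from the start of Gimap8 in kb, for the cluster with its neighbours (left) and the cluster alone (right); Gm28053, inside the cluster, is not drawn. Bars at the bottom right are gene spans, plus strand above minus strand, in grey for Gimap1 and Gimap5. The 7 Gimap points run from 0.41 to 2.08, and Gimap9 and Gimap4, which lie next to each other, have the lowest values.

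The shares of single members within the family were also compared, since they depend on no scaling between libraries. Gimap4 held 38.5%, 41.2% and 37.6% of the summed Gimap CPM in WT and 29.5%, 28.0% and 33.2% in UTX TCD libraries. Gimap7 went from 2.07%, 1.98% and 3.15% to 4.91%, 7.48% and 4.96%. The ratio of Gimap7 to Gimap4 counts was 0.0536, 0.0482 and 0.0836 in WT and 0.166, 0.267 and 0.149 in UTX TCD libraries, so that the groups did not overlap. The difference was 1.65 on the log2 scale, with a two-sided exact permutation p of 0.1, the smallest that 3 against 3 libraries allow, and 0.12 adjusted over the 21 pairs of members. This pair joins the members with the largest and the smallest fold change, so its difference was the widest by choice. Of the 21 pairs, 17 did not overlap between the groups. No such share was computed for pairs of other genes, so this count is not shown to be particular to the family. The 21 pairs reuse the same 7 genes and are not separate observations. The ratio of Gimap3 to Gimap8 overlapped between the groups: it was 2.43, 2.44 and 2.45 in WT and 2.42, 2.61 and 2.56 in UTX TCD libraries (log2 difference 0.05, exact permutation p = 0.4, adjusted 0.42).

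Per kilobase of annotated exon, Gimap4 was also the highest in both genotypes, at 551 ± 24.4 CPM per kb in WT and 733 ± 114 CPM per kb in UTX TCD cells. In WT cells the order went on with Gimap3 at 209.6 ± 20.97, Gimap9 at 148 ± 5.62, Gimap6 at 141 ± 17.5, Gimap8 at 59.8 ± 5.74, Gimap7 at 27.1 ± 9.37 and Gimap1os at 6.46 ± 0.177 CPM per kb. Gimap9 and Gimap6 overlapped there, and the other neighbours in the order did not. In UTX TCD cells Gimap6, at 289 ± 52.7 CPM per kb, stood above Gimap9, at 221 ± 29.6, and Gimap7, at 115 ± 50.7, above Gimap8, at 110.1 ± 19.1. Both pairs overlapped between libraries, as did Gimap3, at 401 ± 82.1 CPM per kb, with Gimap6.

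Genes beside the cluster were called in both directions. Of the 10 nearest annotated protein-coding genes on each side and 1 inside it, 6 had rows, of which 2 were called higher and 3 lower, where 41.1% of all genes were called higher and 27.0% lower. Sspo, which encodes the secreted protein SCO-spondin and lies 146.0 kb before the cluster, had 13.7, 16.7 and 15.9 CPM in WT and 1.08, 1.37 and 1.56 CPM in UTX TCD libraries (log2 -3.50 ± 0.26, edgeR adjusted p = 4.7e-04). The zinc finger gene Zfp467, 201.4 kb before it, fell by 1.14 ± 0.21 on the log2 scale. Igf2bp3, an RNA-binding protein gene 314.4 kb after it, was at -0.73 ± 0.20, and lost its call without WT replicate 1 or 2. AI854703, the closest on the left at 13.5 kb, was at 0.71 ± 0.26, and Repin1, at 48.2 kb, at 0.55 ± 0.19. The higher calls numbered 0 when WT replicate 1 or 2 was left out or the replicate block was used, and 1 when WT replicate 3 or UTX TCD replicate 2 or 3 was left out. Gm28053, an annotated gene that shares exon bases with Gimap7, Gimap1 and Gimap5, had 1.98, 2.49 and 3.29 CPM in WT and 1.81, 5.39 and 8.54 CPM in UTX TCD libraries and was not called (1.03 ± 0.53, edgeR adjusted p = 0.11). Of the 21 neighbours, 15 were not analysed here.

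Of the BCL2 family, through which mitochondrial apoptosis is decided, 5 of 18 listed genes had rows, 1 of them called higher and 2 lower (median -0.32), beside 41.1% higher and 27.0% lower over all genes tested. Bcl2, which protects from apoptosis, had 201.1, 202 and 224 CPM in WT and 609.8, 933 and 671 CPM in UTX TCD libraries, with no overlap. It rose by 1.82 ± 0.16 on the log2 scale (edgeR adjusted p = 5.9e-04), and by 1.61 without UTX TCD replicate 2. Of the 3 genes with rows that promote apoptosis, 2 were called lower. Bak1, a pore-forming member, fell by 0.35 ± 0.08 and Bcl2l11, which encodes the activator BIM, fell by 0.45 ± 0.15 on the log2 scale (edgeR adjusted p = 0.011 and 0.031). Bax, the partner reported for Gimap4, was at -0.20 ± 0.08 and did not pass (edgeR adjusted p = 0.067), nor did Bcl2l1, which encodes BCL-XL, at -0.32 ± 0.22. Leaving out WT replicate 1, 2 or 3 gave 1, 0 or 1 lower calls. Bak1 lost its call without WT replicate 1 or 2. Bcl2l11 lost its call without WT replicate 2 or 3 or UTX TCD replicate 1, and with RLE or upper-quartile scaling.

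Among ATG8 and autophagy genes, 11 of 32 had rows, 7 called higher and 2 lower (median 0.29), beside the same 41.1% and 27.0% over all genes. The ATG8 gene Map1lc3b, which encodes LC3B, was at 0.37 ± 0.11 and the related Gabarapl1 did not pass at -0.18 ± 0.09. Rb1cc1, Ulk1 and Ulk2, of the complex that starts autophagosomes, were at 0.43 ± 0.10, 0.33 ± 0.09 and 0.39 ± 0.11. Wipi1, which binds phosphoinositides on the forming membrane, had 0.568 to 0.792 CPM in WT and 1.56 to 4.23 CPM in UTX TCD libraries (1.91 ± 0.50). Atg4d, a protease that processes ATG8 proteins, was lower at -0.35 ± 0.10. Leaving out WT replicate 1, 2 or 3 gave 0, 1 or 3 higher calls, and leaving out UTX TCD replicate 3 gave 3, with 0 lower calls in each of these.

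Genes of the resting T cell state, which activation through the T cell receptor normally lowers, were mostly called higher: of 17 with rows of 22 listed, 15 were called higher and 1 lower, with a median of 1.17, where 41.1% and 27.0% of all genes were called. Klf2, a transcription factor of quiescent T cells, had 31.9, 33.1 and 49.8 CPM in WT and 116, 188 and 209 CPM in UTX TCD libraries (log2 2.16 ± 0.26, edgeR adjusted p = 0.0015). S1pr1, the receptor for exit from lymphoid tissue, rose by 2.61 ± 0.40 and Cdkn1b, a cell cycle inhibitor, by 1.17 ± 0.16. The transcription factor genes Lef1 and Ets1 rose by 0.71 ± 0.08 and 1.20 ± 0.14. UTX TCD replicate 2 was the highest library for 14 of the 17, and for 32.8% of all genes. That share again includes genes that were lower in UTX TCD cells, so it is a low comparator. The lower gene was Slfn2, a regulator of T cell quiescence, at -0.32 ± 0.09, whose call was lost without WT replicate 1 or 2. The choice of this list followed earlier results of these data, so its count is no independent evidence of direction.

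Other GTPase families of immune cells include the interferon-induced GBP and IRG proteins. Of 10 with rows of 21 listed, 3 were called higher and 1 lower (median 0.27), where 41.1% and 27.0% of all genes were called. Gbp9 and Gbp8 rose by 1.16 ± 0.26 and 0.75 ± 0.14 on the log2 scale. Gbp9 had 491 CPM in UTX TCD replicate 2 against 236 and 265 CPM in UTX TCD replicates 1 and 3, and its log2 fold change was 0.75 without that library. Ifi47 was at 0.28 ± 0.09 and Tgtp1 at -0.32 ± 0.11. Higher calls were 6 under upper-quartile scaling or with DESeq2 and 5 when UTX TCD replicate 1 was left out, and the lower call was lost without any 1 library but UTX TCD replicate 2.

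**Figure D4:**
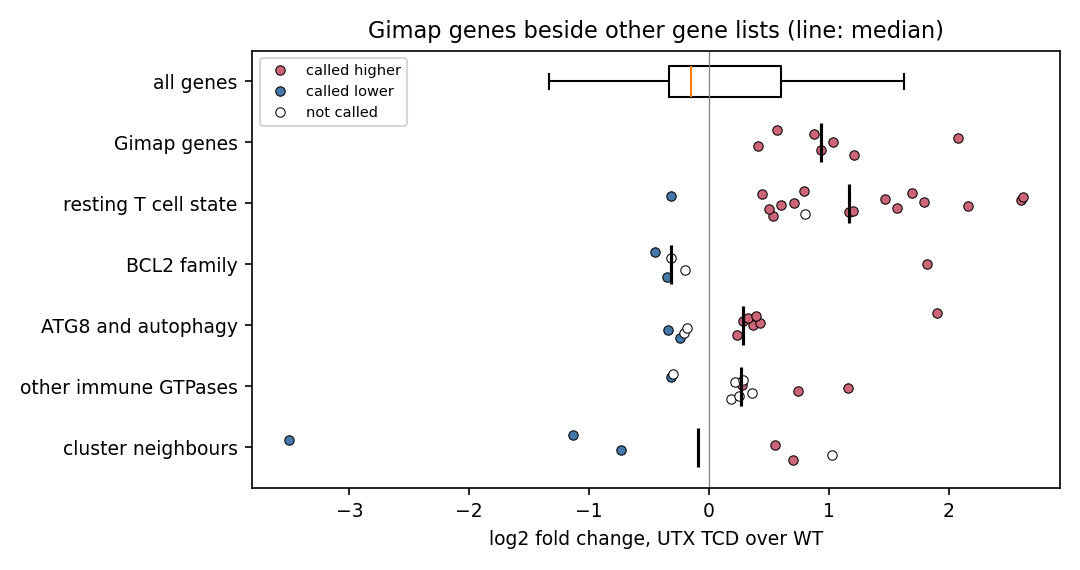
log2 fold change of each gene with a row, by list, with red points called higher, blue called lower, white not called and a line at the median. The box for all genes tested gives the quartiles with whiskers at the 5th and 95th percentiles. The Gimap points all lie at or above 0.41, and the median of all genes is -0.15.

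The genes outside the family whose profile over the 6 libraries came nearest to the mean profile of the coding Gimap members were ranked by Euclidean distance of centred log2 CPM. The 10 nearest were Il16, Zbtb42, Fbxo44, Selplg, Samhd1, Ly6e, Kansl1l, Ccng2, Mettl27 and Rcor2, at distances of 0.12 to 0.21, and all were called higher, a direction that follows from choosing them by a profile that is higher in UTX TCD libraries. Zbtb42, Fbxo44, Mettl27 and Rcor2 lost that call when WT replicate 1 or 2 was left out, and Rcor2 also when WT replicate 3 or UTX TCD replicate 2 was. Il16, which encodes the T cell cytokine interleukin 16, had 107, 111 and 135 CPM in WT and 199, 290 and 231 CPM in UTX TCD libraries. Selplg, the P-selectin ligand, had 413, 407 and 488 CPM and 649, 968 and 743 CPM in these groups. Samhd1, which breaks down deoxynucleotides, had 1479, 1409 and 1757 CPM and 2359, 4063 and 2689 CPM. By the same measure, Gimap3 and Gimap6 lay at 0.08 and 0.10 and Gimap8 at 0.17, whereas Gimap9, Gimap4 and Gimap7 lay at 0.60, 0.76 and 1.45, although each is part of that mean.

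Markers of the cell types that the culture could hold were mostly not among the rows. Of 12 CD4 T cell markers, Cd28, Lck and Thy1 had rows, with a summed level of 3212 to 3407 CPM in WT and 3025 to 3291 CPM in UTX TCD libraries. That sum holds genes called in opposite directions. Cd28, the costimulatory receptor engaged in the culture, had 849 to 1092 CPM in WT and 1634 to 1854 CPM in UTX TCD libraries (log2 0.83, edgeR adjusted p = 0.0020). Thy1, a surface marker of mouse T cells, was at 718 to 887 CPM in WT and 42.9 to 77.6 CPM in UTX TCD libraries (log2 -3.83, edgeR adjusted p = 1.9e-04). Of 15 B cell markers only Fcer2a had a row, at 20.8 to 21.5 CPM in WT and 7.29 to 16.1 CPM in UTX TCD libraries, opposite in direction to the Gimap genes. None of the 12 myeloid markers had a row. Of 9 markers of CD8 T or NK cells, Cd8b1, Klrd1, Eomes and Prf1 had rows, with a summed level of 40.2 to 80.7 CPM in WT and 66.9 to 119 CPM in UTX TCD libraries. Cd8b1 was called higher like the Gimap genes, with 11.6 to 14.5 CPM in WT and 31.5 to 56.2 CPM in UTX TCD libraries. Klrd1 was also called higher, with 1.09 to 1.82 CPM in WT and 2.77 to 4.33 CPM in UTX TCD libraries (log2 1.40, edgeR adjusted p = 0.015). Prf1 had 5.21 to 8.51 CPM in WT and 9.30 to 10.3 CPM in UTX TCD libraries, without overlap, and did not pass (edgeR adjusted p = 0.067), nor did Eomes. No marker with a row was at 0. The part of other cells in the Gimap difference was not tested.

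**Figure D5:**
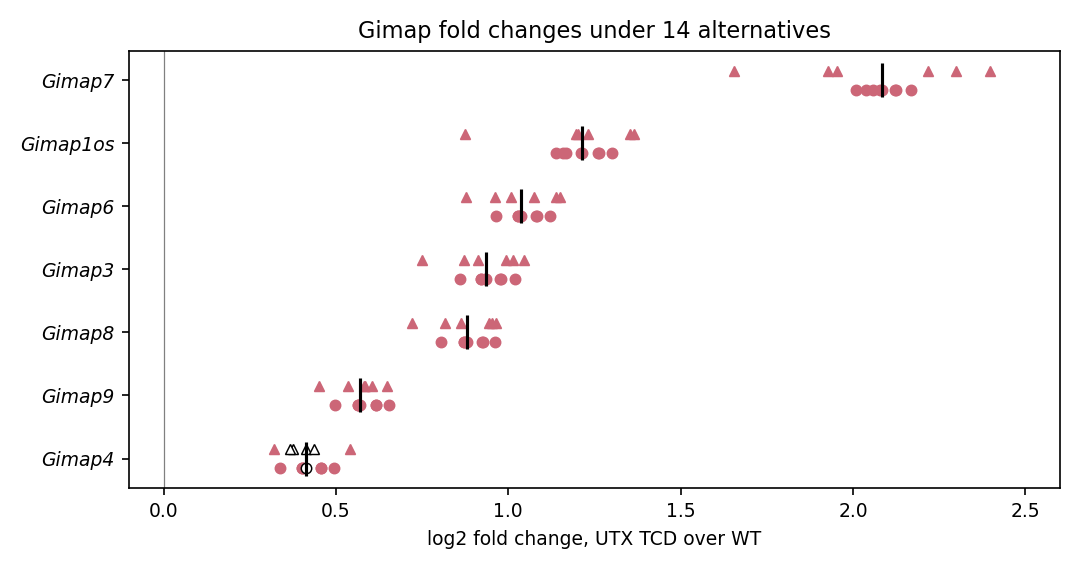
log2 fold change of each Gimap gene under 14 alternatives, with triangles where 1 library was left out, circles for other settings and a black line at the reported value. Red symbols are called and open symbols are not. All values are above 0, and Gimap4 is the gene with open symbols.

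Across the 14 alternatives 6 of the 7 Gimap genes were called each time, and Gimap4 in 9. The share of all genes called each time was not computed, so these counts have no comparator. The lowest value of each gene stayed above 0: it was 1.66 for Gimap7, 0.88 for Gimap6, 0.87 for Gimap1os, 0.75 for Gimap3, 0.72 for Gimap8, 0.45 for Gimap9 and 0.32 for Gimap4. For each of the 7 this lowest value was the one without UTX TCD replicate 2.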

How the data were processed

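Whole-number raw counts per gene were deposited for 6 libraries. FastQC, HISAT2 and HTSeq with build mm10 are named, per the submitters' processing notes. Not given in the sources used here are their versions, the annotation, strand setting, treatment of multi-mapping reads and the selection of rows.

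Genotype was tested with edgeR 4.0.16 (R 4.3.3, quasi-likelihood, TMM scaling, minimum count 10 and minimum total 15, 44 genes removed), with Benjamini-Hochberg adjustment over 4118 genes. Each standard error was obtained from the log2 fold change and its F statistic. Alternatives were DESeq2 1.42.0, limma-voom 3.58.1, other scalings, no filter, a replicate block, adjustment over 21951 annotated genes, and each library left out. The test was also run on simulated data, and the outcome is not reported here. Annotation was GENCODE M21 and promoters were from RefSeq (GRCm38.p6).

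Each Gimap value rests on 181 to 14218 counts. Named genes were all Gimap rows, cluster neighbours with rows, the 10 nearest profiles, cell type markers and Kdm6a. From each list up to 6 called genes were named by p. Some list members that were not called were also named. Irf7 and Slfn2 were named after their values were seen. A gene that this rule names in the resting T cell list is not reported here. Members and lists were chosen with earlier results of these data known.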

Additional observations from a re-analysis of the deposited data

How the results depend on the processing

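Over all genes, calls were 1692 higher and 1111 lower. Adjustment over all annotated genes left 630 and 296. Upper-quartile scaling gave 725 lower calls and gap-centred scaling 1832. With 1 library left out, higher calls ran from 730 to 1824 and lower calls from 351 to 1458. Gimap rows called higher were 7 in the reported fit, 6 to 7 with 1 library left out and 6 with adjustment over all annotated genes, and 0 were called lower in each. By that adjustment the autophagy list had 0 higher and 0 lower calls, the BCL2 family 0 lower, the cluster neighbours 0 higher, the other immune GTPases 1 higher and 0 lower, and the resting list 0 lower. The autophagy list had 1 lower call with RLE scaling, upper-quartile scaling, DESeq2 or the replicate block, and 4 with gap-centred scaling. The BCL2 family had 1 lower call with RLE or upper-quartile scaling and 3 with the replicate block. The neighbours had 1 higher call with gap-centred scaling and 0 with the replicate block. The other immune GTPases had 6 higher calls with upper-quartile scaling or DESeq2, and 0 lower calls with these, RLE scaling or the replicate block, and 2 lower with gap-centred scaling. With 1 library left out, ranges of higher and lower calls were 0 to 7 and 0 to 3 for autophagy, 1 to 1 and 0 to 2 for BCL2, 0 to 3 and 2 to 3 for neighbours, 2 to 5 and 0 to 1 for other GTPases, and 11 to 16 and 0 to 1 for the resting list. Signs turned for Gbp6 (0.36) and Eomes (0.13), neither of them called in the reported fit. With 1 library left out, Gbp6 ran from -0.047 to 0.63 and Eomes from -0.13 to 0.66. The value of 0.63 for Gbp6, without UTX TCD replicate 1, was called (edgeR adjusted p = 0.043). Gbp6 was below 0 without UTX TCD replicate 3, and Eomes without WT replicate 1 or 2 (-0.039) or UTX TCD replicate 2 (-0.086). The cause of these changes was not tested.

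The replicate numbers are not stated to pair the mice. Deviations of same-numbered libraries correlated at 0.28, -0.28 and 0.18. Deviations from a mean of 3 libraries depend on one another, so these values cannot decide whether the mice were paired. With the replicate block, calls were 1607 higher and 1026 lower over all genes, and 7 Gimap rows were higher. Not every library correlated best with its own number. Of 965 values for 69 other named genes, 808 kept their direction and side of the threshold, 130 lost the call and 23 gained it. Precision is limited by 3 libraries per genotype, by UTX TCD replicate 2 and by rows that appear selected on the genotype difference.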
